A study of Mus musculus with 12 samples.

Results

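The comparison described here is Atg5 knockout (Atg5 KO) against control in 562 cells, a mouse vascular tumor cell line. Its members were chosen by label: 3 Atg5 KO libraries and 3 control libraries, which are 6 of the 12 RNA-sequencing libraries of the series. The other 6 libraries are from Fip200 KO and Atg7 KO 562 cells. The 562 line is a single spontaneously immortalized line, grown out of a cutaneous tumor of a mouse in which tamoxifen-activated Scl-Cre had deleted Tsc1. Every group derives from these Tsc1-deleted cells, including the control, whose genotype label reads wildtype. The mouse strain is C57BL/6. The labels call the material vascular tumor cells and the tissue lymphatic endothelial cells. The Atg5 KO cells were selected with puromycin after transduction with 1 guide RNA against Atg5 in the LentiCRISPR v2 vector, and whether a clone or a pool was sequenced is not given in the sources used here. The guide RNA used as control in the study targets EGFP, and whether the sequenced control cells carried it is not given in the sources used here.

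Each library is known by its group, a replicate number and the prefix of its library name. Control replicate 1 has the prefix FY, and control replicates 2 and 3 have the prefix JG. Atg5 KO replicates 1 and 2 also have the prefix JG, while Atg5 KO replicate 3 has the prefix Yang. All 3 Fip200 KO libraries have the prefix FY and all 3 Atg7 KO libraries the prefix Yang. What a prefix stands for is not stated, but 2 libraries of each group share JG, and the comparison was repeated inside that prefix. Values are RPKM (reads per kilobase of gene, scaled to the reads of the library), listed throughout for replicates 1, 2 and 3 in that order. Between 18958962 and 23627944 reads were counted per library. Of 14851 genes in the table, 11833 reached an RPKM of 0.5 in 3 or more of the 6 libraries and were tested with limma on log2 of RPKM plus 0.5. A gene was called higher or lower when its Benjamini-Hochberg adjusted p did not exceed 0.1 and its log2 fold change reached 1 in either direction. The median log2 fold change over all genes tested was 0.06. Unlabelled values in parentheses after a gene, or after the library left out, are log2 fold changes. With 1 library left out the filter still asked for 3 libraries, so a gene above it in 1 group alone was not tested without a library of that group. Among the called genes named here this holds for Col4a6, Gpc1, Gpc6, Itgb4, Itgb7, Lamb3, Lifr, Mme, Mx1 and Slc6a12 without a control library, and for Gpx7 and Peg10 without an Atg5 KO library. The filter let these genes change in 1 direction alone. P-values measure the spread between these 6 libraries. In bulk RNA, fewer cells of a type and less RNA per cell cannot be told apart.

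The cells carried endothelial RNA in all 6 libraries. Pecam1, an endothelial adhesion molecule, measured 428, 265 and 350.2 in the control libraries and 397, 418 and 355 in the Atg5 KO libraries, and the lymphatic hyaluronan receptor Lyve1 measured 179, 98.9 and 60.6 in the control libraries and 191, 264 and 293 in the Atg5 KO libraries. Prox1, the transcription factor that sets lymphatic identity, was low at 1.35, 0.153 and 0.795 in the control libraries and 1.33, 3.9 and 0.134 in the Atg5 KO libraries. The pan-leukocyte gene Ptprc stayed at or below 0.129 RPKM in each library.

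ATG5 is part of the conjugation machinery of autophagy. It is joined covalently to ATG12, binds ATG16L1, and the resulting complex directs the attachment of ATG8 proteins (the LC3 and GABARAP families) to lipid on the growing autophagosome, which then delivers its cargo to the lysosome. Without ATG5, ATG8 lipidation and canonical autophagy fail, as they do without ATG7, the E1-like enzyme of both conjugation systems. The targeted gene itself was compared first. Atg5 RNA measured 14.2, 11.1 and 10.6 in the control libraries and 8.53, 15.5 and 12.6 in the Atg5 KO libraries. The groups overlapped, with the lowest and the highest value both in Atg5 KO libraries (log2 fold change 0.00 ± 0.23 (SE), adjusted p = 0.99). RNA of Atg5 thus did not tell the groups apart and does not check the labels.

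Most other genes of the conjugation machinery were at or below their control level. Of 16 tested genes of this list, Atg5 included, 2 were called lower and none higher, against a background of 6.94% of all tested genes called lower and 4.31% called higher. Their median log2 fold change was −0.38. An adjusted p of at most 0.1 at any size of change was found for 7 of the 16, all lower, and among all genes for 18.7% in the lower direction and 22.9% in the higher. These shares are the background for each list below. Atg7 measured 18.4, 25 and 19.8 in the control libraries and 9.99, 11.9 and 9.94 in the Atg5 KO libraries. Each Atg5 KO value lay below each control value, yet the change was just short of the size required (log2 fold change −0.95 ± 0.15 (SE), adjusted p = 0.0083). Atg4a, a protease that primes ATG8 proteins, measured 5.23, 6.5 and 4.66 in the control libraries and 2.47, 2.11 and 2.69 in the Atg5 KO libraries (log2 fold change −1.02 ± 0.17 (SE), adjusted p = 0.009). It lost its call without control replicate 2 (−0.90) or without Atg5 KO replicate 2 (−0.94). Map1lc3a, which encodes LC3A, measured 14.7, 41.1 and 25.1 in the control libraries and 15, 14.1 and 6.73 in the Atg5 KO libraries, with Atg5 KO replicate 1 above control replicate 1. Its change (log2 fold change −1.10 ± 0.43 (SE), adjusted p = 0.092) lost its call without control replicate 2 (adjusted p = 0.22), without control replicate 3 (adjusted p = 0.19) or without any of the Atg5 KO replicates (adjusted p = 0.12 to 0.22). The list's lower count of 2 was 4 without control replicate 1, 0 without control replicate 2 and 1 without any other library.

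The remaining members gave log2 fold changes of Atg10 (−0.68), Atg12 (−0.67), Atg4c (−0.58), Map1lc3b (−0.50), Atg4b (−0.40), Gabarapl2 (−0.35), Gabarap (−0.30), Gabarapl1 (−0.11), Atg16l1 (−0.06), Atg3 (0.08), Atg4d (0.12) and Atg16l2 (0.45), none of them called. The 16 genes of the initiation and PI3-kinase complexes, which start the autophagosome, had a median of 0.01 with none called. Of these, 3 had an adjusted p of at most 0.1 on each side, among them Atg9a (−0.62) and Ulk1 (−0.53) and Uvrag (0.53) and Atg2a (0.66).

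Of 12 autophagy receptors, which link cargo to ATG8 proteins, 2 were called lower and none higher, beside 6.94% and 4.31% of all tested genes. Retreg1, a receptor for the endoplasmic reticulum, measured 14.9, 15 and 22.8 in the control libraries and 5.28, 6.11 and 3.03 in the Atg5 KO libraries (log2 fold change −1.79 ± 0.28 (SE), adjusted p = 0.0076). Optn, a receptor for ubiquitin-tagged cargo, measured 45.6, 39.2 and 41 in the control libraries and 18.2, 20.3 and 7.69 in the Atg5 KO libraries (log2 fold change −1.53 ± 0.34 (SE), adjusted p = 0.019). For both genes the groups did not overlap and Atg5 KO replicate 3 was lowest. Sqstm1, which encodes p62, measured 359, 579 and 374 in the control libraries and 349, 373 and 206 in the Atg5 KO libraries, and its log2 fold change of −0.51 was not called (adjusted p = 0.21).

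Lysosome genes lay lower as a list. Their median log2 fold change was −0.56 over 24 genes, with 3 called lower, none higher, and 13 with an adjusted p of at most 0.1 on the lower side. The 3 Atg5 KO libraries were all below the 3 control libraries for 18 of the 24, an ordering found in 22.0% of all tested genes, while 28.4% had the reverse order. Tfeb, the transcription factor of lysosome and autophagy genes, measured 5.12, 4.77 and 6.1 in the control libraries and 1.1, 1.41 and 1.57 in the Atg5 KO libraries. That was a 3.14-fold lower level with no overlap (log2 fold change −1.65 ± 0.17 (SE), adjusted p = 0.0037). Gla, which encodes the enzyme alpha-galactosidase A, measured 17.9, 35 and 36 in the control libraries and 10.7, 13.8 and 10.2 in the Atg5 KO libraries (log2 fold change −1.27 ± 0.28 (SE), adjusted p = 0.019). The protease gene Ctsl measured 586, 2046 and 981 in the control libraries and 516, 527 and 410.4 in the Atg5 KO libraries. Its call rested on few libraries (log2 fold change −1.13 ± 0.42 (SE), adjusted p = 0.082), since it was lost without any library other than control replicate 1 and the change was −0.66 without control replicate 2. Uncalled members with an adjusted p of at most 0.1 included Ctsb (−0.99), Npc2 (−0.93), Lamp1 (−0.91) and Lamp2 (−0.86), while Neu1 stood at 0.02. Without control replicate 1, 5 lysosome genes were called lower.

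Over all genes, 821 were called lower and 510 higher, 1331 in total. Log2 fold changes of called genes ran from −6.10 to 5.69, and 183 lower and 55 higher genes changed by more than 2 on that scale. Inside the JG prefix, with 2 Atg5 KO against 2 control libraries and the same 11833 genes, 7.86% were called lower and 6.06% higher. Of the 1331 calls, 1134 were also called there, which is 85.2% of the 1331 and 68.9% of the 1647 calls of that smaller comparison. They were 702 lower and 432 higher genes, and all 1134 kept their direction. The 4 libraries are among the 6, so the fits share data. Atg5 KO replicates 1 and 2 were also the most alike of any replicate pair.

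**Figure D1:**
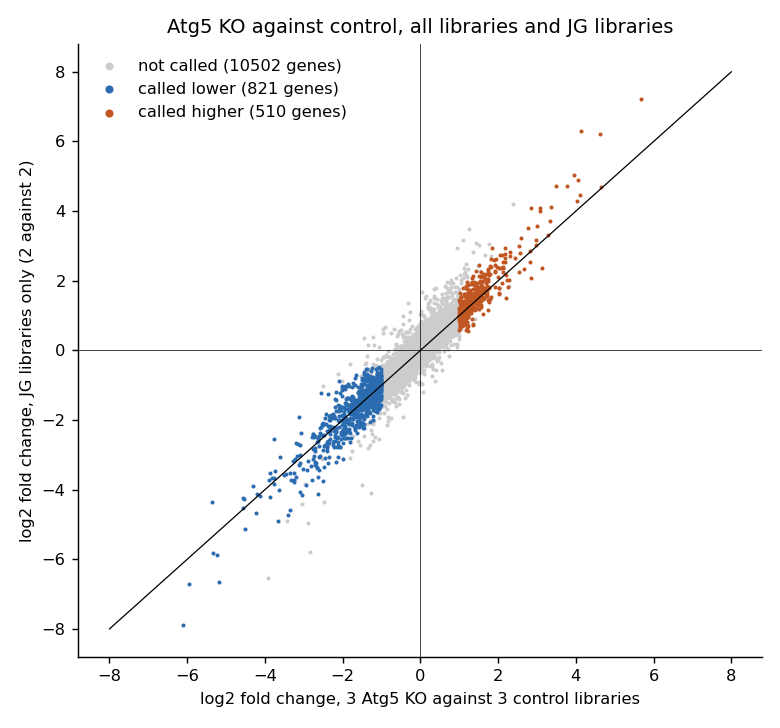
Log2 fold change (Atg5 KO minus control) of each tested gene with all 6 libraries (horizontal axis) against that with the 4 JG libraries only (vertical axis), with called genes coloured by direction. The 821 lower and 510 higher genes lie on the same side of 0 on both axes, and the spread around the diagonal comes with the 2 libraries left out.

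The lowest fold changes are given first. By rule, the 10 lowest and 10 highest among called, non-overlapping genes with a mean RPKM of at least 2 are named. The 10 lowest were Gpc1 (−6.10), Cck (−5.95), Cdkn1c (−5.37), Grem1 (−5.33), Twist2 (−5.23), Gm5886 (−5.18), Mme (−4.58), Slc6a12 (−4.56), Npy (−4.54) and Spp1 (−4.50). Gpc1, a heparan sulfate proteoglycan of the cell surface, measured 2.32, 266 and 62 in the control libraries and 0.0292, 0.0547 and 0 in the Atg5 KO libraries. Spp1, which encodes the secreted matrix protein osteopontin, measured 59.4, 1369.7 and 127 in the control libraries and 9.47, 13.9 and 5.79 in the Atg5 KO libraries (log2 fold change −4.50 ± 1.07 (SE), adjusted p = 0.023). Grem1, a secreted BMP antagonist, measured 28.6, 411 and 143 in the control libraries and 3.7, 3.94 and 0.903 in the Atg5 KO libraries. For all 3 genes control replicate 2 held by far the highest value, and control replicate 1 was nearest to the Atg5 KO libraries. Gpc1 was not called by voom on whole reads (adjusted p = 0.2). Slc6a12 and Npy did not have that pattern. Slc6a12, which encodes a betaine and GABA transporter, measured 12.4, 20.8 and 10.1 in the control libraries and 0.0599, 0.262 and 0.0178 in the Atg5 KO libraries. Npy, which encodes neuropeptide Y, measured 16.3, 11.8 and 26.4 in the control libraries and 0.184, 0.775 and 0 in the Atg5 KO libraries. Their controls lay within a narrow range and every Atg5 KO value was below 1 RPKM.

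The 10 highest fold changes were Mest (5.69), Chrdl1 (4.63), Xist (4.63), Trp53i11 (4.11), Sncaip (4.07), Thy1 (4.02), Sgce (3.95), Bgn (3.78), Fam174b (3.49) and Prss23 (3.36). Mest, an imprinted gene of the hydrolase family, measured 20.5, 1.95 and 0.116 in the control libraries and 189, 178 and 127 in the Atg5 KO libraries (log2 fold change 5.69 ± 1.14 (SE), adjusted p = 0.014). Chrdl1, a secreted BMP antagonist, measured 0.621, 0.0486 and 0.00726 in the control libraries and 14, 12.4 and 24.9 in the Atg5 KO libraries (log2 fold change 4.63 ± 0.38 (SE), adjusted p = 0.0031). Bgn, a small matrix proteoglycan, measured 7.83, 0.943 and 0.877 in the control libraries and 35, 39.1 and 29.8 in the Atg5 KO libraries (log2 fold change 3.78 ± 0.66 (SE), adjusted p = 0.01). In these 3 genes control replicate 1 had the highest control value, still below each Atg5 KO library. Xist, the noncoding RNA that coats the inactive X chromosome, measured 12.7, 0.538 and 0.0178 in the control libraries and 56.1, 50.9 and 36.2 in the Atg5 KO libraries, with control replicate 1 again between the other controls and the Atg5 KO libraries. Inside the JG prefix, which leaves out control replicate 1, the log2 fold changes were 7.23 for Mest, 4.70 for Chrdl1, 4.73 for Bgn and 6.20 for Xist.

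The most abundant genes called lower were Fabp4, Hmox1, Cryab, Ctsl and Cpe. Fabp4, a fatty acid binding protein of capillary endothelium, measured 3255, 2496 and 2768 in the control libraries and 732, 959.8 and 442 in the Atg5 KO libraries (log2 fold change −2.06 ± 0.28 (SE), adjusted p = 0.0059). Cryab, a small heat shock protein, measured 2183, 1357 and 1639 in the control libraries and 182, 277 and 154 in the Atg5 KO libraries, which is 8.53-fold lower (log2 fold change −3.09 ± 0.26 (SE), adjusted p = 0.0031). Cpe, a carboxypeptidase that processes peptide hormones, measured 724, 629 and 787 in the control libraries and 302, 282 and 178 in the Atg5 KO libraries (log2 fold change −1.52 ± 0.22 (SE), adjusted p = 0.0062). The groups stood well apart in all 3. The most abundant genes called higher were Rps2, Egfl7, Cdh5, Hnrnpu and Ybx1. Rps2, a ribosomal protein gene with many processed copies in the genome, measured 1004, 853 and 765 in the control libraries and 1849.7, 1736 and 2065 in the Atg5 KO libraries (log2 fold change 1.11 ± 0.15 (SE), adjusted p = 0.0054). Ybx1, an RNA-binding protein, measured 202, 192 and 175 in the control libraries and 382, 358 and 475 in the Atg5 KO libraries, and its call was lost without Atg5 KO replicate 3 (log2 fold change 1.09, and 0.96 without it). Calls were also lost for Egfl7 without any library other than control replicate 1 (0.64 to 1.26), Cdh5 without control replicate 2 or Atg5 KO replicate 1 (0.85 to 1.22), Hnrnpu without control replicate 2 (0.86), Ctsl without any library other than control replicate 1 (−0.66 to −1.20) and Hmox1 without Atg5 KO replicate 3 (−0.90).

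**Figure D2:**
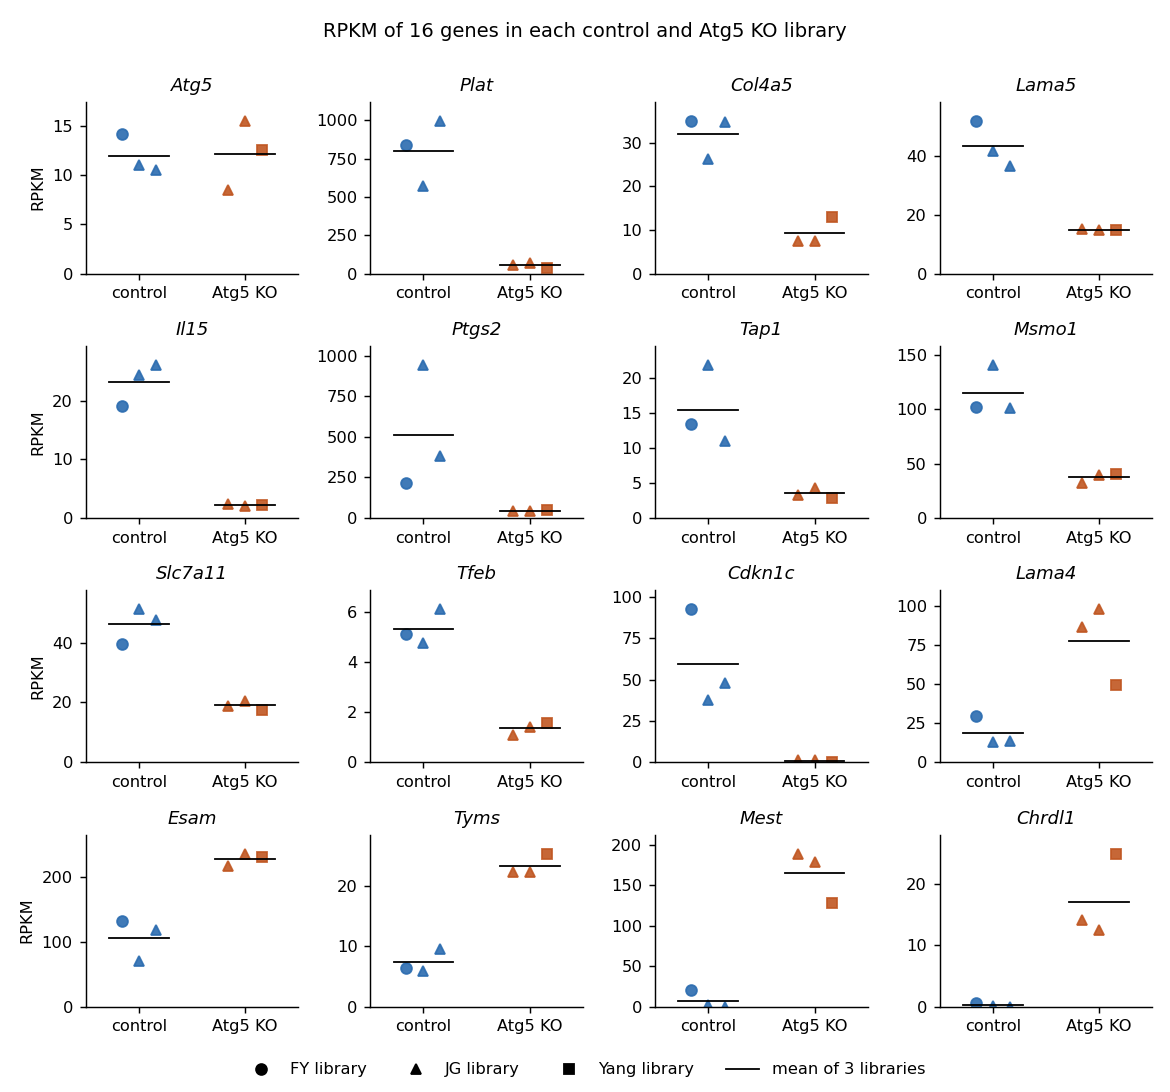
RPKM of 16 named genes in each of the 6 libraries (vertical axes), with the group on the horizontal axis, the library-name prefix as the marker and a line at the mean of 3 libraries. Atg5 overlaps between the groups, while the other genes lie on 1 side in Atg5 KO.

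Of 19 matrix proteases and their inhibitors, 8 were called lower and none higher, with a median log2 fold change of −0.90 and 7 to 9 called lower with any 1 library left out. Plat, tissue plasminogen activator, measured 835, 572 and 997 in the control libraries and 59.1, 71.4 and 34.6 in the Atg5 KO libraries. That was 14.7-fold lower, with each Atg5 KO value far under the lowest control (log2 fold change −3.88 ± 0.31 (SE), adjusted p = 0.0031). Serpine2, an inhibitor of thrombin and plasminogen activators, measured 28.5, 331 and 148 in the control libraries and 11.7, 12.7 and 0.945 in the Atg5 KO libraries (log2 fold change −4.20 ± 1.12 (SE), adjusted p = 0.033). The other 6 were Mmp19 (−2.36), Adamts4 (−2.17), Mmp11 (−2.04), Mmp13 (−1.44), Adamts5 (−1.14) and Timp3 (−1.01), metalloproteinases apart from the inhibitor Timp3. In the opposite direction, Mmp14, a membrane-bound collagenase, and Adamts9 had log2 fold changes of 0.76 and 0.93, too small to be called. They were the only members with an adjusted p of at most 0.1 on that side, and 1 member was called higher without control replicates 1 or 3 or Atg5 KO replicates 1 or 2. The count hides a change of members, because calls were lost for Adamts5 without any library other than control replicate 2 (−0.79 to −1.28), Timp3 without control replicates 1 or 2 or Atg5 KO replicate 2 (−0.88 to −0.97) and Mmp13 without control replicate 3 or Atg5 KO replicate 3 (−1.03 to −1.08). Adamts5 and Mmp13 were not called with the replicate block, nor Adamts5 and Timp3 inside the JG prefix (−0.92 and −0.98).

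Of 11 tested collagen chains of 20 listed, 4 were called lower and none higher (median −1.49). Col4a6, among the 4, passed the filter through the control libraries alone, so its lower call is not independent of the filter. The paired X-linked basement membrane chains moved together, on a chromosome whose tested genes had a median of −0.36. Col4a5 measured 35, 26.3 and 34.6 in the control libraries and 7.39, 7.57 and 13 in the Atg5 KO libraries (log2 fold change −1.76 ± 0.24 (SE), adjusted p = 0.0058). Col4a6 measured 3.48, 7.97 and 5.87 in the control libraries and 0.117, 0.153 and 0.111 in the Atg5 KO libraries (log2 fold change −3.26 ± 0.28 (SE), adjusted p = 0.0031). Neither pair of groups overlapped. The ubiquitous chains of the same network, Col4a1 and Col4a2, had log2 fold changes of −0.21 and −0.30 and were not called. Col5a3 (−2.77) and Col8a1 (−1.69) completed the called chains. Col6a1 had a larger fitted change (−3.42) but an adjusted p of 0.13, with values of 0.398, 108 and 6.15 against 0.586, 0.256 and 0.14.

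Laminins moved in both directions. Lama5, the long alpha chain of vessel and epithelial basement membranes, measured 52, 41.8 and 36.6 in the control libraries and 15.3, 14.8 and 14.8 in the Atg5 KO libraries (log2 fold change −1.49 ± 0.14 (SE), adjusted p = 0.0037). Lama4, the alpha chain typical of endothelium, measured 29.8, 12.9 and 14 in the control libraries and 86.3, 97.9 and 49.4 in the Atg5 KO libraries (log2 fold change 2.06 ± 0.38 (SE), adjusted p = 0.011). Neither gene overlapped between groups, and inside the JG prefix their log2 fold changes were −1.35 and 2.73. Of the 14 tested genes of the list, 3 were called lower and 1 higher (median −0.40). The other called genes were Lamb3 (−1.24) and Itgb4 (−1.24), a chain and an integrin subunit of epithelial-type adhesion. With control replicate 2 or control replicate 3 left out, the lower count was 1. Lamb3 and Itgb4 were not tested then. The higher count was 2 without control replicates 1 or 2 and 3 without Atg5 KO replicate 3. Lamb3 and Itgb4 are low genes whose calls were lost with a pseudocount of 1 (−0.78 and −0.89) and whose changes were larger with a pseudocount of 0.1 (−2.62 and −1.88) and by voom (−4.18 and −2.18).

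Of 8 cell surface proteoglycans, 4 were called lower and none higher, namely Gpc1 (−6.10), Sdc1 (−3.87), Gpc6 (−2.41) and Sdc2 (−1.02). Gpc1 and Gpc6 passed the filter through the control libraries alone, so their lower calls are not independent of the filter. Without control replicate 2 the lower count was 1 and Sdc2 stood at −0.65, and without control replicate 3 the lower count was 2. Gpc1 and Gpc6 were not tested in these fits, and of the 4 only Sdc2 was tested and lost its call, without control replicate 2. Osteopontin and its receptors held 2 lower genes, Spp1 (−4.50) and Itgb5 (−2.65), and 1 higher, Itga4, of 9 tested. Itgb5, an integrin beta subunit that binds vitronectin and osteopontin with alpha v, measured 0.941, 17.3 and 5.77 in the control libraries and 0.727, 0.355 and 0.122 in the Atg5 KO libraries, and was not called without control replicate 3 or Atg5 KO replicates 2 or 3 (adjusted p = 0.14, 0.12 and 0.13). Itga4 measured 2.6, 1.13 and 1.16 in the control libraries and 4.26, 3.53 and 4.56 in the Atg5 KO libraries (log2 fold change 1.18 ± 0.28 (SE), adjusted p = 0.023). Itgav and Cd44, further osteopontin receptors, had log2 fold changes of −0.59 and −0.51 and were not called. Besides control replicate 2, the Sdc2 call needed Atg5 KO replicates 1 and 2 (adjusted p = 0.11 and 0.13 without them). With a pseudocount of 1 Itga4 was just short of the size required.

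Several genes that mark blood endothelium were higher in Atg5 KO cells. Of 19 tested, none was called lower and 6 were called higher (median 0.67), and inside the JG prefix 10 were called higher. Robo4, a receptor of endothelium, measured 36, 12.2 and 24.2 in the control libraries and 76.2, 69.4 and 67.2 in the Atg5 KO libraries (log2 fold change 1.66 ± 0.35 (SE), adjusted p = 0.017). Esam, an adhesion molecule of endothelial tight junctions, measured 131, 69.9 and 118 in the control libraries and 216, 235 and 230.2 in the Atg5 KO libraries (log2 fold change 1.14 ± 0.23 (SE), adjusted p = 0.015). Cdh5, which encodes VE-cadherin, measured 309.7, 116 and 271 in the control libraries and 571, 558 and 443 in the Atg5 KO libraries (log2 fold change 1.28 ± 0.36 (SE), adjusted p = 0.038). No Atg5 KO value of these 3 genes reached down to a control value, and control replicate 2 was the lowest library in each. Without control replicate 2, Cdh5 and Esam were not called (0.85 and 0.87), and Cdh5 was also not called without Atg5 KO replicate 1 (adjusted p = 0.11). The others were Kdr (1.35), Egfl7 (1.16) and Cldn5 (4.12), of which Kdr and Cldn5 overlapped between the groups. Without control replicate 2, Kdr stood at 0.81 and Egfl7 at 0.64. The count of 6 was 1 without control replicate 2, 3 without control replicate 3, 2 without Atg5 KO replicate 1, 3 without Atg5 KO replicate 2 and at most 9 otherwise. The summed RPKM of the 21 listed genes ran from 1627 to 3922 in control and from 3703 to 4276 in Atg5 KO libraries. Pecam1 had a log2 fold change of 0.19, and Flt1, the decoy-like VEGF receptor, of −1.54 (adjusted p = 0.12). Single omissions ended the calls for Egfl7 without any library other than control replicate 1 (0.64 to 1.26), Kdr without control replicates 2 or 3 or Atg5 KO replicates 1 or 2 (0.81 to 1.39) and Cldn5 without control replicates 2 or 3 or Atg5 KO replicates 1 or 2 (3.36 to 3.86). Inside the JG prefix Kdr stood at 2.13 and Cldn5 at 6.30.

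Among 9 lymphatic markers, Lyve1 (1.25) and Mmrn1 (2.18) were called higher and Foxc2 lower (−2.37), a transcription factor of lymphatic valves. None of the 3 calls held under every omission of a library: 0 to 3 were called higher and 0 to 1 lower. Foxc2 measured 15.3, 15 and 15.9 in the control libraries and 6.18, 6.26 and 0.136 in the Atg5 KO libraries, with Atg5 KO replicate 3 far below the others. Its log2 fold change was −1.24 inside the JG prefix and −1.24 without Atg5 KO replicate 3. Mmrn1 stood at 1.36 without control replicate 2. Sums of the listed lymphatic markers ran from 368 to 489 RPKM in control and from 609.9 to 748 in Atg5 KO libraries. The calls were lost for Lyve1 without control replicates 2 or 3 or Atg5 KO replicates 2 or 3 (0.88 to 1.23), Mmrn1 without each Atg5 KO library in turn (1.87 to 2.37) and Foxc2 without each control library in turn (−2.35 to −2.39). Mmrn1 was not called inside the JG prefix (adjusted p = 0.1).

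Markers of other cell types were mostly below the filter. Of 16 fibroblast and mural markers, 5 were tested, and 3 were called higher, namely Thy1 (4.02), Tagln (2.12) and Acta2 (1.50). Thy1, a surface glycoprotein of fibroblasts and other cells, measured 17.7, 11.2 and 2.36 in the control libraries and 118, 107 and 207 in the Atg5 KO libraries (log2 fold change 4.02 ± 0.66 (SE), adjusted p = 0.0085). The Acta2 call was lost without control replicates 1 or 2 or Atg5 KO replicates 1 or 2 (adjusted p = 0.11 to 0.14) and inside the JG prefix (adjusted p = 0.13), and none of the 3 was called in 1 fit of all 12 libraries (adjusted p = 0.13 to 0.3). Pdgfrb, a defining mural gene, was at 0.0187, 4.19 and 0.261 against 0.0829, 0.0777 and 0.0822 RPKM in control against Atg5 KO, and Dcn, a fibroblast proteoglycan, at 0.125, 56.9 and 15.2 against 0.443, 0.508 and 0.989. The summed level of this list was 24 to 226 RPKM in control and 120.4 to 251 in Atg5 KO libraries. Cd68, a lysosomal membrane protein abundant in macrophages, was the 1 called leukocyte marker of 2 tested and was lower (91.7, 49.8 and 34.4 against 11.2, 11.6 and 9.94, log2 fold change −2.26). Krt19 was the 1 called epithelial marker of 2 tested and was also lower (6.78, 7.77 and 5.76 against 1.28, 0.823 and 0.262, −2.57). Summed leukocyte markers were 52.9 to 111 RPKM in control and 15 to 16.8 in Atg5 KO libraries, and epithelial ones 12.4 to 17.6 and 2.17 to 6.97. Neither of the 2 tested neuronal markers was called (Tubb3 (−0.57) and Gap43 (−0.37)). The part of these cell types in other results was not tested.

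Angiogenic growth factors moved in both directions. Of 19 tested ligands and receptors, 5 were called lower and 2 higher (median −0.08), and 3 to 6 were lower and 0 to 4 higher with 1 library left out. The lower ones were the ligands Vegfc (−2.40), Pdgfa (−2.08), Pdgfc (−1.81) and Vegfa (−1.26) and the receptor Fgfr1 (−1.43). Vegfc, the main lymphatic growth factor, measured 2.05, 11 and 7.83 in the control libraries and 0.854, 1.08 and 0.271 in the Atg5 KO libraries (log2 fold change −2.40 ± 0.57 (SE), adjusted p = 0.024). Pdgfa measured 4.25, 19.1 and 17.9 in the control libraries and 1.93, 2.62 and 2.5 in the Atg5 KO libraries (log2 fold change −2.08 ± 0.53 (SE), adjusted p = 0.029). Control replicate 1 was the lowest control for both. The higher ones were the ligand Pdgfd (1.20) and the VEGF receptor Kdr (1.35). Neither was called without control replicates 2 or 3 or Atg5 KO replicates 1 or 2, and 1 was without Atg5 KO replicate 3. Vegfa lost its call without control replicate 2 (−0.99). The Pdgfc call was lost without any library other than control replicate 1 (adjusted p = 0.14 to 0.19) and by voom on whole reads (adjusted p = 0.13).

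BMP and TGF-beta genes held 4 lower and 3 higher of 20 tested (median −0.24). Id1 and Id2, direct BMP targets that restrain differentiation, were both lower. Id1 measured 326, 160.0 and 345 in the control libraries and 68.7, 73.5 and 50.4 in the Atg5 KO libraries (log2 fold change −2.04 ± 0.31 (SE), adjusted p = 0.0073). Id2 measured 30.5, 30.2 and 31.2 in the control libraries and 7.04, 3.32 and 7.67 in the Atg5 KO libraries (log2 fold change −2.33 ± 0.28 (SE), adjusted p = 0.0048). No value of either gene overlapped, and leaving out any 1 library kept both calls. Id3, of the same family, had a log2 fold change of −0.62 (adjusted p = 0.011), too small to be called. The antagonists went opposite ways, with Grem1 at −5.33 and Chrdl1 at 4.63. Tgfb3 was lower (−1.64), while Tgfb2 (1.08) and Acvrl1 (1.09), a ligand and an endothelial BMP9 receptor, were higher. The higher count was 1 to 5 with 1 library left out, lowest without control replicate 2 and highest without control replicate 1. Calls were lost for Tgfb2 without any library other than control replicate 1 (0.66 to 1.28) and Acvrl1 without control replicate 2 (0.86).

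Mesenchymal transition genes held 3 lower, Twist2 (−5.23), Tgfb3 (−1.64) and S100a4 (−1.09), and 1 higher, Tgfb2, of 12 tested (median −0.19). Vim had a log2 fold change of 0.02. The Tgfb2 and S100a4 calls were lost without any library other than control replicate 1. Tgfb2 stood at 0.66 without control replicate 3, and S100a4 at −0.64 without control replicate 2. Of 12 Notch and arteriovenous genes only Notch4 was called (1.11, higher), a call that was lost without any library other than control replicate 1 and Atg5 KO replicate 3, with 0.72 without control replicate 2. Of 12 YAP and TEAD genes Ankrd1 (1.74) and Ajuba (1.05) were called higher (median 0.33), and the targets Ctgf and Cyr61 had log2 fold changes of 0.97 and 0.02. Ankrd1 stood at 1.11 without Atg5 KO replicate 3. That count of 2 was 0 without control replicate 2 and 1 without control replicate 3 or Atg5 KO replicates 1 or 3. Of 11 semaphorins, plexins and neuropilins, Sema3a (−1.31) and Plxnb2 (−1.03) were lower and Sema3e (1.22) higher. Without any library other than control replicate 1, 1 of the list was called lower, and none was called higher without control replicate 3 or Atg5 KO replicate 3. In the YAP and semaphorin lists, calls were lost for Ajuba without control replicates 2 or 3 or Atg5 KO replicates 1 or 3 (0.76 to 1.08), Ankrd1 without control replicate 2 (1.45), Plxnb2 without control replicates 2 or 3 or Atg5 KO replicates 1 or 2 (−0.82 to −0.98), Sema3a without Atg5 KO replicate 3 (−0.97) and Sema3e without control replicate 3 or Atg5 KO replicate 3 (0.83 to 1.16). The calls of Ajuba (0.99), Sema3a (−0.82) and Sema3e (0.69) were lost inside the JG prefix, where Plxnb2 stood at −1.56 and Notch4 at 1.79.

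Several inflammatory genes were lower. Of 21 NF-kB and TNF response genes, 8 were lower and 2 higher (median −0.37), with 7 to 9 lower and 2 higher when 1 library was left out. Ptgs2, which encodes cyclooxygenase 2, measured 215, 942 and 381 in the control libraries and 44.9, 40.8 and 48 in the Atg5 KO libraries (log2 fold change −3.25 ± 0.48 (SE), adjusted p = 0.0068). Il15, a cytokine for natural killer and T cells, measured 19.1, 24.3 and 26.1 in the control libraries and 2.34, 2.13 and 2.24 in the Atg5 KO libraries (log2 fold change −3.10 ± 0.15 (SE), adjusted p = 0.0019). Sele, endothelial E-selectin, measured 36.6, 38.7 and 71.5 in the control libraries and 14.7, 15.1 and 10 in the Atg5 KO libraries (log2 fold change −1.80 ± 0.29 (SE), adjusted p = 0.008). The 3 genes did not overlap, and for Il15 the Atg5 KO libraries lay within a narrow range. The other lower genes were Tnfaip2 (−1.62), Fas (−1.35), Map3k8 (−1.29), Traf1 (−1.25) and Tnfrsf1b (−1.12). The higher ones were Icam1, an adhesion molecule for leukocytes, at 40.8, 34.4 and 25.8 against 61.9, 81.3 and 86.8 RPKM (1.18), and the inhibitor Nfkbie (1.24). The NF-kB subunits Rela (0.35), Nfkb1 (0.31), Nfkb2 (−0.03) and Relb (−0.28) were not called. The call was lost for Tnfrsf1b without control replicates 2 or 3 or Atg5 KO replicates 1 or 2 (−0.83 to −1.02). Inside the JG prefix Traf1 was not called (−0.96), and Tnfaip2 and Tnfrsf1b stood at −1.05 and −1.78. Nfkbie was not called with a pseudocount of 1 (0.98), nor Icam1 in 1 fit of all 12 libraries (adjusted p = 0.6).

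Of 11 chemokines, 4 were lower, Ccl7 (−2.95), Cx3cl1 (−2.07), Ccl25 (−1.13) and Cxcl2 (−1.05), and Cxcl12 was higher (1.09). Cx3cl1, a membrane-bound chemokine, measured 21.2, 12.6 and 8.74 in the control libraries and 3.84, 4.68 and 1.07 in the Atg5 KO libraries (log2 fold change −2.07 ± 0.50 (SE), adjusted p = 0.025), and its change inside the JG prefix was −1.21. Ccl7 measured 19.6, 479 and 55.2 in the control libraries and 10, 11.3 and 8.86 in the Atg5 KO libraries, with control replicate 2 far above the rest, and a log2 fold change of −1.67 without that library. The lower count was 2 without control replicate 3 or Atg5 KO replicate 1 and 1 without Atg5 KO replicate 3. The Cxcl12 call was lost without control replicates 1 or 3 or Atg5 KO replicates 1 or 3, where its log2 fold change was 0.68 to 1.18. Among the lower genes, calls were lost for Ccl7 without control replicate 3 or each Atg5 KO library in turn (−2.87 to −3.22), Cxcl2 without control replicates 2 or 3 or Atg5 KO replicates 1 or 3 (−0.82 to −1.12) and Ccl25 without Atg5 KO replicate 3 (−0.90). Neither Ccl25 (−0.93) nor Cxcl12 (adjusted p = 0.22) was called inside the JG prefix.

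In the IL-6 family and JAK-STAT3 list, 6 of 23 were lower and none higher (median −0.43). Jak3, a kinase of common gamma chain receptors, measured 15.5, 16.7 and 26.3 in the control libraries and 3.32, 4.5 and 2.42 in the Atg5 KO libraries (log2 fold change −2.35 ± 0.27 (SE), adjusted p = 0.0042). The groups were far apart and no omission of a library ended that call. Il6 measured 1.45, 36 and 10.4 in the control libraries and 1.3, 1.62 and 0.662 in the Atg5 KO libraries (log2 fold change −2.48 ± 0.96 (SE), adjusted p = 0.092). Control replicate 1 lay within the Atg5 KO range, and the call was lost without any library other than control replicate 1 (log2 fold change −1.49 without control replicate 2). The others were Bcl3 (−1.98), Lifr (−1.47), Stat5b (−1.33) and Clcf1 (−1.23), and the count of 6 was 2 without control replicate 2 and 3 without control replicate 3. Lifr was not tested without a control library, which is part of both falls. Stat3 (−0.32), Socs3 (−1.25, adjusted p = 0.25) and Il6st (−0.02), which encodes the shared receptor gp130, were not called. Further calls were lost for Bcl3 without control replicates 2 or 3 or Atg5 KO replicates 1 or 2 (−1.46 to −1.89), Clcf1 without control replicate 2 (−0.95) and Stat5b without Atg5 KO replicate 3 (−0.96). Bcl3 stood at −3.11 inside the JG prefix.

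Immediate early and AP-1 genes held 5 lower, Klf2 (−2.01), Nr4a1 (−1.90), Jund (−1.74), Junb (−1.60) and Ier2 (−1.14), and 1 higher, Dusp5 (1.08), of 20 tested. Klf2, a flow-responsive transcription factor of endothelium, measured 201, 102 and 214 in the control libraries and 60.1, 73.5 and 14.6 in the Atg5 KO libraries, with Atg5 KO replicate 3 lowest and a log2 fold change of −1.30 without it. Klf2, Jund, Junb and Ier2 are all on chromosome 8, and 1 of the 16 tested members elsewhere in the genome was lower. The lower count was 2 without control replicate 3 and 3 without Atg5 KO replicate 3. Dusp5 was not called without control replicates 1 or 2 or Atg5 KO replicates 1 or 2. Fos (−0.62), Jun (−0.39) and Egr1 (0.42) were not called. Lower calls were lost for Junb without control replicates 2 or 3 or Atg5 KO replicates 1 or 3 (−1.24 to −1.59), Klf2 without control replicates 1 or 3 (−1.82 to −1.86) and Ier2 without control replicate 3 or Atg5 KO replicate 3 (−0.86 to −0.92). Nr4a1 was not called inside the JG prefix (−1.57, adjusted p = 0.13), and Klf2 stood at −1.15 there.

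MHC class I presentation genes were lower as a group. Of 10 tested, 5 were called lower and none higher, with a median of −1.09, and 9 had an adjusted p of at most 0.1 with no overlap between groups. Of all tested genes 6.94% were called lower, 18.7% had such an adjusted p on the lower side and 22.0% had all Atg5 KO below all control libraries. Tap1, a subunit of the transporter that loads peptides, measured 13.5, 21.9 and 11 in the control libraries and 3.32, 4.36 and 2.92 in the Atg5 KO libraries (log2 fold change −1.94 ± 0.27 (SE), adjusted p = 0.006). Psmb9, an immunoproteasome subunit, measured 5.95, 10.4 and 3.77 in the control libraries and 0.835, 2.11 and 0.631 in the Atg5 KO libraries (log2 fold change −2.09 ± 0.43 (SE), adjusted p = 0.016). Nlrc5, the transactivator of class I genes, measured 8.06, 11.9 and 7.86 in the control libraries and 2.3, 2.4 and 2.52 in the Atg5 KO libraries (log2 fold change −1.72 ± 0.19 (SE), adjusted p = 0.0038). All Atg5 KO values lay below all control values for these 3 genes, and no omission of a library ended the calls. Psmb8 and Tap2 were lower too (−1.30 and −1.23), and Tap2 was not called without control replicate 2 (−0.94) or Atg5 KO replicate 3 (−0.98). The abundant genes B2m (−0.94), H2-K1 (−0.90), H2-D1 (−0.90) and Tapbp (−0.95) fell short of the required size. H2-K1 and H2-D1 have near-identical stretches, so reads between them may be uncertain. The count of 5 was 9 without control replicate 3. Of 22 interferon-stimulated genes, Ifit2 (−1.16) and Mx1 (−1.14) were lower and Oasl1 (2.12) higher, with a median of −0.05. Both shares were near the 6.94% and 4.31% of all tested genes. The call was lost for Ifit2 without control replicates 1 or 2 or Atg5 KO replicates 1 or 2 (−0.86 to −1.15). The lower count was 0 without control replicates 1 or 2 and 1 without control replicate 3 or Atg5 KO replicates 1 or 2. Mx1 was not tested without a control library. Oasl1 measured 16.2, 19.7 and 5.81 in the control libraries and 59.7, 58 and 49.2 in the Atg5 KO libraries, with no overlap. Ifit2 was not called inside the JG prefix (adjusted p = 0.15), nor Mx1 with a pseudocount of 1 (−0.72).

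Sterol synthesis genes moved down as a list. Of 23 genes of cholesterol synthesis and uptake, 6 were called lower and none higher (median −0.69), 18 had an adjusted p of at most 0.1 on the lower side, and 19 had all Atg5 KO below all control libraries, where the shares of all tested genes were 6.94%, 18.7% and 22.0%. Between 6 and 8 were called with 1 library left out. Msmo1, the sterol C4 methyl oxidase, measured 102, 141 and 101 in the control libraries and 32.4, 39.7 and 40.7 in the Atg5 KO libraries (log2 fold change −1.59 ± 0.17 (SE), adjusted p = 0.0037). Fdps, the enzyme of farnesyl pyrophosphate synthesis, measured 104, 136 and 98.1 in the control libraries and 37.3, 47.4 and 51.3 in the Atg5 KO libraries (log2 fold change −1.30 ± 0.17 (SE), adjusted p = 0.0055). Hmgcs1, which makes HMG-CoA, measured 64.2, 56.7 and 69.5 in the control libraries and 27.8, 33.6 and 26.1 in the Atg5 KO libraries (log2 fold change −1.11 ± 0.14 (SE), adjusted p = 0.0048). In all 3 the control libraries were close together and the Atg5 KO libraries lay under them. The other called genes were Cyp51 (−1.49), Mvd (−1.31) and Nsdhl (−1.26). Sqle, squalene epoxidase, and the transcription factor Srebf2 had log2 fold changes of −0.66 and −0.73, too small to be called. Of 12 fatty acid synthesis genes only Acss2, acetyl-CoA synthetase, was called (5.79, 13.5 and 5.13 against 1.3, 1.44 and 2.69 RPKM, −1.83), and Fasn stood at 0.53. The count of that list was 2 without control replicates 1 or 3 and 3 without Atg5 KO replicate 3.

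The promoter of Hmgcs1 is shown because it was the only one of 16 list genes with a RefSeq promoter entry to hold the searched sterol element TCACNCCAC. The 250 bases before the RefSeq start (GRCm38.p6, chr13:119690101-119690350 on the plus strand) read as follows, 5′ to 3′ with the match in capitals. On either strand, 1.05% of 32851 promoters of the same length held these letters, and a match is a description only.
Hmgcs1: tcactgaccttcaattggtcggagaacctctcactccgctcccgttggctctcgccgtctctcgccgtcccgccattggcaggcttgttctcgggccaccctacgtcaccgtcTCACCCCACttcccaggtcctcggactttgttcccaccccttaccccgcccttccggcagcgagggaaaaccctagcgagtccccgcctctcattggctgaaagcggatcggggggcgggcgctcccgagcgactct

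ATF4 is a transcription factor of amino acid and stress responses that is translated when eIF2 is phosphorylated. Of 19 listed targets, 6 were called lower and none higher (median −0.69). Nupr1, a stress-induced chromatin regulator, measured 242, 524 and 222 in the control libraries and 76.2, 93.1 and 46.8 in the Atg5 KO libraries (log2 fold change −2.13 ± 0.38 (SE), adjusted p = 0.011). Ddit4, an inhibitor of mTORC1, measured 114, 300.1 and 147 in the control libraries and 37.6, 46.3 and 63.1 in the Atg5 KO libraries (log2 fold change −1.83 ± 0.37 (SE), adjusted p = 0.014). Slc7a11, the cystine and glutamate exchanger, measured 39.5, 51.1 and 47.6 in the control libraries and 19, 20.5 and 17.6 in the Atg5 KO libraries (log2 fold change −1.25 ± 0.13 (SE), adjusted p = 0.0037). The groups were apart in all 3. The other called targets were Ddit3 (−1.59), Chac1 (−1.34) and Slc7a5 (−1.28), and the count was 3 without control replicate 2. Ddit3 stood at −0.77 without that library, and its call was also lost without any of the Atg5 KO replicates and inside the JG prefix. Chac1, which degrades glutathione, measured 41.8, 163 and 70 in the control libraries and 32.5, 36.9 and 23.8 in the Atg5 KO libraries, and its call was lost without any library other than control replicate 1 (log2 fold change −0.81 without control replicate 2, adjusted p = 0.11 to 0.17 without the others). The Slc7a5 call was lost without control replicate 2 (−0.98). Atf4 itself had a log2 fold change of −0.03, and Asns (−0.69), Psat1 (0.29), Mthfd2 (−0.17) and Trib3 (−0.25) were not called.

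The promoters of Chac1, Nupr1 and Slc7a11 are shown because these called genes hold the ATF4 composite element TTNCATCA, in capitals, within the 250 bases before the RefSeq start. The element was searched on both strands and was found in 5 of 17 list genes with an entry, and in 3.45% of 32851 promoters. Asns and Pck2, also with a match, were not called. The windows on GRCm38.p6 are chr2:119350992-119351241 on the plus strand, chr7:126625471-126625720 on the minus strand and chr3:50443614-50443863 on the minus strand, each written 5′ to 3′ along its gene. The match starts 193 bases before the start of Chac1, 110 bases before that of Nupr1, and 66 and 47 bases before that of Slc7a11, which has 2 matches.
Chac1: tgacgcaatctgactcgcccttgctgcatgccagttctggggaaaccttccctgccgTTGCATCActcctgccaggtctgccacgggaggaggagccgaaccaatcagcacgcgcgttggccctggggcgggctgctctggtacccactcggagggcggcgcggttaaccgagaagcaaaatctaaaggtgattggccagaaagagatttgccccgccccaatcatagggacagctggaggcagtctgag
Nupr1: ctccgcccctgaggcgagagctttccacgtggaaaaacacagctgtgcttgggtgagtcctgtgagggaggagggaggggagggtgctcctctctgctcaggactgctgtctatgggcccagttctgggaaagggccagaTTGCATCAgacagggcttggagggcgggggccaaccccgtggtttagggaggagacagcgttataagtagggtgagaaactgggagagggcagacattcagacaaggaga
Slc7a11: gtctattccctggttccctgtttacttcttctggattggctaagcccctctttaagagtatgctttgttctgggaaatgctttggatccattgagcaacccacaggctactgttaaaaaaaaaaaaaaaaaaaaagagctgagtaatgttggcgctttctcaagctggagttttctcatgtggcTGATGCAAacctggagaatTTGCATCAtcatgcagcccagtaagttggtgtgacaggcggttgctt

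Neighbouring stress and metabolic lists held fewer calls. Of 19 genes for chaperones of the endoplasmic reticulum and the unfolded protein response, Herpud1 (−1.52) and Atf6 (−1.05) were lower, with 1 called without control replicate 2, and Hspa5 and Xbp1 both had a log2 fold change of −0.31. Of 20 Nrf2 targets, Abcc4 (−1.36), Slc7a11 (−1.25) and Hmox1 (−1.20) were lower. Hmox1, heme oxygenase 1, measured 2011, 1871 and 1419 in the control libraries and 957, 921 and 494 in the Atg5 KO libraries, and was not called inside the JG prefix (−0.80) or without Atg5 KO replicate 3 (−0.90). Nqo1, a standard Nrf2 target, had a log2 fold change of −0.38. Of 22 glycolysis and hypoxia genes, Aldoc (−1.99), Pfkp (−1.93) and Vegfa (−1.26) were lower and Adm higher. Pfkp, the platelet-type phosphofructokinase, measured 78.2, 94.5 and 115 in the control libraries and 20.1, 32.4 and 22.7 in the Atg5 KO libraries (log2 fold change −1.93 ± 0.21 (SE), adjusted p = 0.0041). Adm, which encodes adrenomedullin, a vasodilator peptide needed for lymphatic vessels, measured 71.2, 56.1 and 73.6 in the control libraries and 150.3, 169 and 252 in the Atg5 KO libraries (log2 fold change 1.47 ± 0.21 (SE), adjusted p = 0.0063). Ldha (−0.03), Gapdh (0.04) and Pkm (0.17) were not called. Without control replicate 2, Atf6 and Vegfa were not called (−0.92 and −0.99).

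The study describes the lesions of this mouse model as driven by mTORC1 hyperactivation after loss of Tsc1, and mTORC1 activity was not measured here. Of 19 mTORC1 genes only Eif4ebp1, the translation repressor, was called (lower, −1.07), and not without control replicate 2 or Atg5 KO replicate 3 or inside the JG prefix (−0.78). It is on chromosome 8, and none of the 18 members elsewhere was called lower. Tsc1 RNA measured 5.55, 7.01 and 5.23 in the control libraries and 3.7, 3.61 and 4.75 in the Atg5 KO libraries (log2 fold change −0.51). A value for the whole gene does not check the deletion. Of 17 PI3K and AKT genes, Sgk1 (−1.33) and Pik3r2 (−1.16) were lower and Pik3cg (1.29) higher, with 2 called higher without control replicate 1.

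Cell division genes lay higher as a list. Of 18 mitosis genes, 15 had all Atg5 KO libraries above all control libraries and an adjusted p of at most 0.1, and the median log2 fold change was 0.77. Among all tested genes 28.4% had that order and 22.9% that adjusted p on the higher side. Just 3 reached the size required, Birc5 (1.08), Cdc20 (1.07) and Kif11 (1.06), and none of the 18 did inside the JG prefix or without control replicate 1. Birc5, survivin, measured 5.11, 9.27 and 8.57 in the control libraries and 16.7, 16.8 and 15.4 in the Atg5 KO libraries, with control replicate 1 the lowest library. Of 18 DNA replication genes, 4 were higher and none lower, namely Tyms (1.63), Ccne2 (1.23), Cdc6 (1.15) and Rrm2 (1.06) (median 0.33). Tyms, thymidylate synthase, measured 6.46, 5.95 and 9.57 in the control libraries and 22.2, 22.3 and 25.3 in the Atg5 KO libraries (log2 fold change 1.63 ± 0.19 (SE), adjusted p = 0.0042). Ccne2, cyclin E2, measured 1.34, 1.66 and 2.37 in the control libraries and 4.94, 5.17 and 4.29 in the Atg5 KO libraries (log2 fold change 1.23 ± 0.20 (SE), adjusted p = 0.0084). Both were apart in every library. Without control replicate 1 the count was 2. The calls lost then were those of Cdc6 (0.93) and Rrm2 (0.74). Neither was called inside the JG prefix (0.95 and 0.69).

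Of 18 genes for p53 targets, Cdk inhibitors and G1 cyclins, 2 were lower and none higher. Cdkn1c, the imprinted Cdk inhibitor p57, measured 92.3, 37.5 and 47.7 in the control libraries and 1.48, 1.72 and 0.0491 in the Atg5 KO libraries (log2 fold change −5.37 ± 0.58 (SE), adjusted p = 0.0038). Cdkn1a, the Cdk inhibitor p21, measured 69.2, 53.9 and 92.4 in the control libraries and 30.4, 47.3 and 11 in the Atg5 KO libraries, and its log2 fold change of −1.46 was −0.89 inside the JG prefix, where it was not called. It was also not called without control replicates 1 or 3 or Atg5 KO replicate 1, and stood at −0.88 without Atg5 KO replicate 3. Ccnd1 (0.99), Cdkn2c (0.97) and Ccnd2 (0.67) fell short of the size on the higher side. None of 13 apoptosis genes was called (median 0.03). Past the adjusted p alone were 3 on the lower side and 2 on the higher, among them Bcl2l1 (−0.95), Bcl2l11 (−0.71) and Bid (0.78). Without control replicate 2, 1 apoptosis gene was called lower.

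Genes for RNA processing and translation had medians somewhat above that of all genes, beside 4.31% of all tested genes called higher. On the higher side 22.9% of all tested genes had an adjusted p of at most 0.1. The median over 47 splicing factors and hnRNPs was 0.50, 32 had an adjusted p of at most 0.1 on the higher side, none on the lower, and 3 were called, Hnrnpm (1.23), Hnrnpu (1.12) and Tra2a (1.02). Without control replicate 2 only 1 was called, without control replicate 1 it was 5 and without control replicate 3 it was 6. For 81 cytosolic ribosomal protein genes the median was 0.39, with 43 past the adjusted p on the higher side and 2 called, Rps2 (1.11) and Rpl30 (1.33), a smaller share than over all genes. Reads of these genes can be shared with processed copies. For 78 mitochondrial ribosomal protein genes the median was 0.27, with 33 past the adjusted p on the higher side and 3 called, Mrpl33 (1.40), Mrpl49 (1.11) and Mrpl16 (1.04), also a smaller share than over all genes. Mrpl49 measured 12.5, 11 and 12.7 in the control libraries and 27.3, 27.8 and 24.5 in the Atg5 KO libraries (log2 fold change 1.11 ± 0.12 (SE), adjusted p = 0.0037). After median-of-ratios scaling between libraries, the median over all genes was shifted by −0.06, and 417 genes were called higher and 894 lower. Single omissions ended calls for Hnrnpm without control replicate 2 (just under the size required), Hnrnpu without control replicate 2 (0.86), Tra2a without control replicate 1 or Atg5 KO replicate 3 (0.91 to 0.98) and Mrpl16 without control replicate 3 (0.78). Tra2a was not called inside the JG prefix (0.87).

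**Figure D3:**
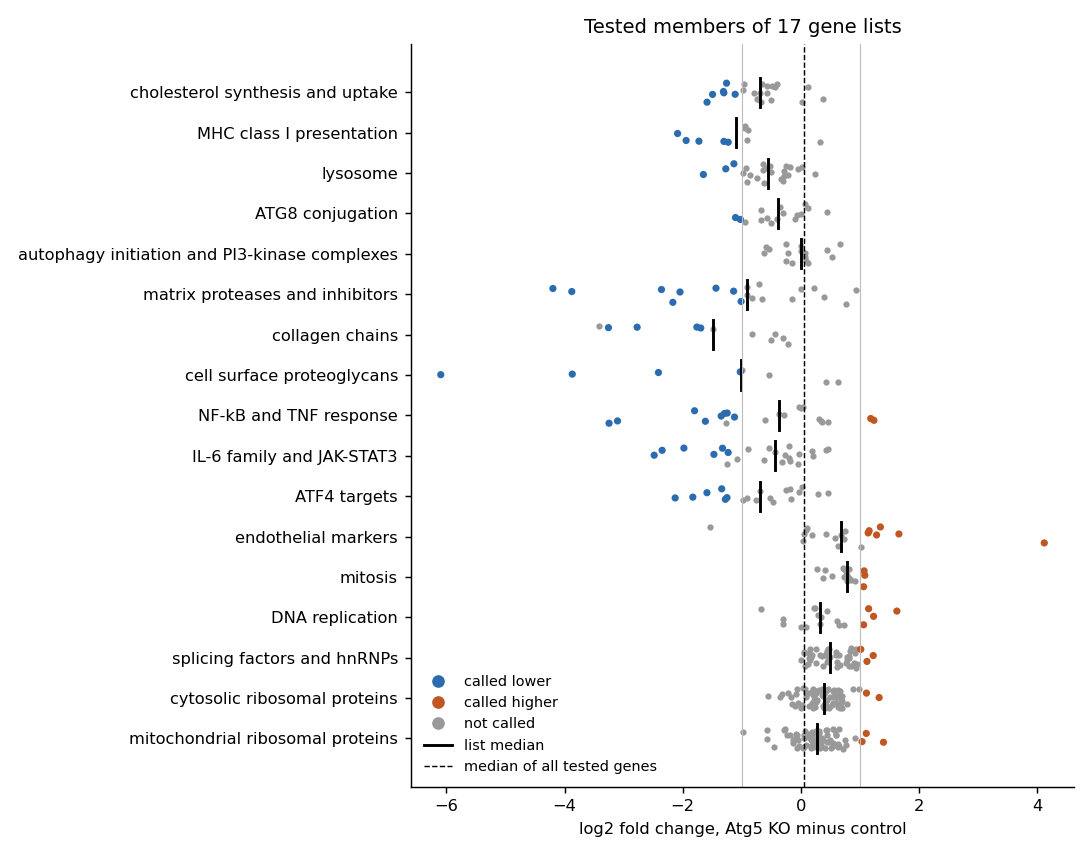
Log2 fold changes (horizontal axis) of the tested members of 17 gene lists, 1 point per gene, called members coloured, with a bar at each list's median and a dashed line at the median of all genes. Collagens, proteases, MHC class I and cholesterol genes lie mostly left of the dashed line, while mitosis, splicing and endothelial genes lie mostly to its right.

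A list of 30 pathway genes that the study itself drew from these libraries is not independent evidence of direction. Of 22 that were tested, 18 were called lower and none higher (median −1.79), and 11 to 17 were called lower with 1 library left out, fewest without control replicate 3. They include Itgb7, an integrin subunit of lymphocyte homing, Lpar2, a receptor for lysophosphatidic acid, and Nr4a1, with log2 fold changes of −2.64, −1.05 and −1.90. Of the 18, 6 are on chromosome 8. Calls were not kept for Itgb7 without each Atg5 KO library in turn (−2.61 to −2.66) and Lpar2 without control replicate 3 (−0.77). Itgb4, Itgb7 and Lamb3 were not tested without a control library. Nr4a1 was not called inside the JG prefix.

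Imprinted genes are expressed from 1 parental allele. Of 8 tested, 2 were called lower and 5 higher, with a median of 2.15, beside 6.94% and 4.31% of all tested genes. Peg10, among the 5, passed the filter through the Atg5 KO libraries alone, so its higher call is not independent of the filter. The other 10 of 18 listed genes were not tested. The lower ones were Cdkn1c and Igf2r. Igf2r, the mannose 6-phosphate receptor, measured 10.7, 28.3 and 19.2 in the control libraries and 0.882, 0.739 and 0.218 in the Atg5 KO libraries (log2 fold change −4.12 ± 0.39 (SE), adjusted p = 0.0037). The higher ones were Mest (5.69), Sgce (3.95), Ndn (3.08), Peg10 (2.66) and Nnat (1.64). Sgce and Peg10 are neighbours that face opposite ways on chromosome 6, where Mest also lies. Sgce, a sarcoglycan, measured 3.62, 0.421 and 0.0265 in the control libraries and 22.1, 22.7 and 13.6 in the Atg5 KO libraries (log2 fold change 3.95 ± 0.71 (SE), adjusted p = 0.011). Peg10 measured 0.166, 0.0254 and 0 in the control libraries and 2.51, 1.76 and 5.97 in the Atg5 KO libraries (log2 fold change 2.66 ± 0.39 (SE), adjusted p = 0.0067). Ndn, which encodes necdin, measured 14.3, 0.666 and 1.32 in the control libraries and 25.6, 23.3 and 30.1 in the Atg5 KO libraries and was not called without control replicate 3 (adjusted p = 0.12). In Mest, Sgce, Peg10 and Ndn control replicate 1 was the highest control library.

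Calls were unevenly spread over the chromosomes. RefSeq (GRCm38.p6) gave a chromosome for 11823 of the 11833 genes by gene identifier. On chromosome 8, 121 of 651 tested genes (18.6%) were called lower and 11 higher. On the other chromosomes 700 of 11172 (6.27%) were called lower, from 3.1% to 11.5% by chromosome. The median log2 fold change of chromosome 8 was −0.37, and −0.31 inside the JG prefix. Against the control mean, its genes had a median of −0.27, −0.27 and −0.51 in Atg5 KO replicates 1, 2 and 3, while the 3 controls lay between −0.03 and 0.01. Chromosome X had a median of −0.36 and chromosome 13 of −0.23, and on the other side chromosome 4 stood at 0.35, chromosome 17 at 0.31 and chromosome 9 at 0.23. On chromosome X, 43 of 377 genes (11.4%) were called lower and 18 higher. Col4a5, Col4a6, Atg4a and Gla are among the lower. List counts were not redone without chromosome X. On chromosome 4, 56 of 710 genes (7.89%) were called higher.

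The shift on chromosome 8 was not even along it. Its genes were divided in order into 14 parts of nearly equal gene number. Parts 6 to 9, from Fkbp8 to Ccdc102a, had medians of −0.91, −0.71, −0.68 and −0.69, and in part 6 20 of 47 genes were called lower. Parts 4, 11, 12 and 14 had medians of 0.07, 0.25, 0.10 and 0.17. Many named genes are on this chromosome: Plat, Jak3, Il15, Cx3cl1, Nlrc5, Msmo1, Mvd, Klf2, Junb, Jund, Ier2, Vegfc, Fgfr1, Foxc2, Hmox1, Cpe and Slc7a5 among the lower, and Cdh5 among the higher. Without chromosome 8 genes the lower calls fell from 5 to 1 of immediate early genes, from 4 to 2 of chemokines, from 5 to 3 of angiogenic ligands and receptors, from 2 to 1 of both PI3K and AKT genes and endoplasmic reticulum chaperones, and from 1 to 0 of both mTORC1 genes and lymphatic markers. They fell from 6 to 4 of cholesterol genes, from 5 to 4 of MHC class I genes, from 6 to 5 of both IL-6 and JAK-STAT3 genes and ATF4 targets, from 8 to 7 of both NF-kB genes and proteases, from 3 to 2 of Nrf2 targets and from 18 to 12 of the genes listed by the study. The higher calls of endothelial markers fell from 6 to 5, and no other list count changed. In the other KO cells, compared with the same control libraries, the chromosome 8 medians were −0.53, −0.43 and −0.09 in Fip200 KO and −0.60, −0.05 and −0.44 in Atg7 KO replicates 1 to 3. Gene dosage was not measured, and its part in these values was not tested.

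**Figure D4:**
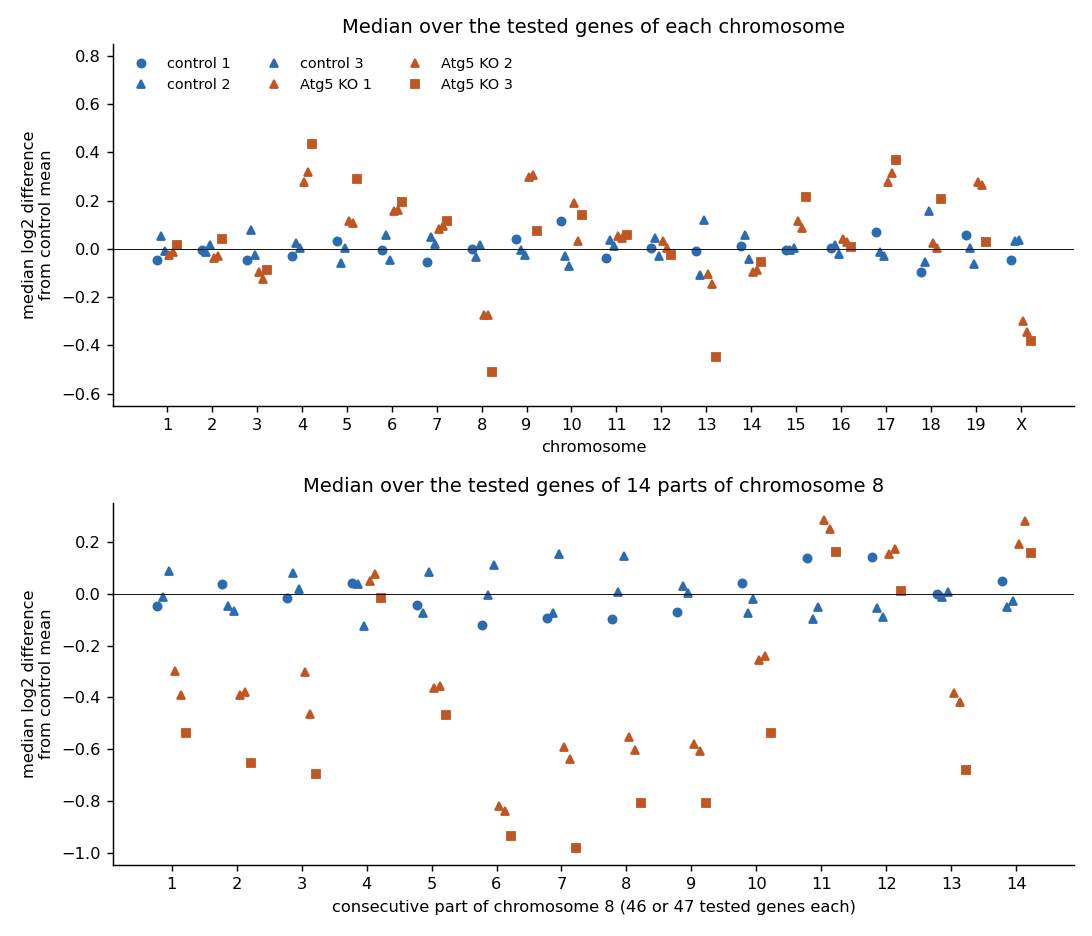
Median log2 difference from the control mean per chromosome (upper panel) and per part for 14 consecutive parts of chromosome 8 (lower panel), 1 point per library, orange for Atg5 KO and blue for control. The 3 Atg5 KO libraries lie below the 3 controls on chromosome 8, and parts 6 to 9 are lowest.

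Whether Atg5 KO cells differ from the other autophagy KO cells was tested in 1 fit of all 12 libraries, as Atg5 KO against the mean of Fip200 KO and Atg7 KO. The library-name prefixes differ between these groups, since neither of the other KO groups has a JG library, so prefix and group cannot be fully told apart in it. Of 12233 genes tested by limma, 0 were called (0%), 697 had an unadjusted p under 0.05, and the smallest adjusted p was 0.211. That does not show that the cells were alike. By smallest p, the lower genes included Lgals3, Adamtsl5, Pbp2 and Srgap3, and the 5 higher were Gpx7, Tox, Cdh24, Disp2 and Ogdhl. Gpx7, a peroxidase of the endoplasmic reticulum, measured 0.391, 0.0349 and 0 against 3.41, 5.12 and 4.88 in control against Atg5 KO, 0.125, 1.23 and 0.0375 in Fip200 KO and 0.334, 0.0452 and 0.605 in Atg7 KO libraries. Its difference from the other KO cells was 2.59 ± 0.38 (SE) on the log2 scale, with an adjusted p of 0.21.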

How the data were processed

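RNA of 562 cells was sequenced from directional libraries (NEBNext Ultra II), with 3 libraries per group. Reads were aligned by the authors with TopHat2, counted with Bioconductor packages and compared with edgeR. The genome build and annotation are not given in the sources used here. The authors deposited RPKM values per library, that is, reads of a gene divided by its length and by the reads of the library, and not scaled between libraries. The unit was read from the values. The deposited group means, fold changes and p-values were not used.

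From these values, log2 of RPKM plus 0.5 was compared with limma 3.58.1 (R 4.3.3) by empirical Bayes moderation with trend, in genes that reached an RPKM of 0.5 in 3 or more of 6 libraries. Fold changes on this scale understate those of low genes. Calls needed an adjusted p not above 0.1 and a log2 fold change of 1 or more in size, the thresholds of the study. Whole reads were recovered for all 14831 genes with reads, and voom on them called 1639 genes. Within control and within Atg5 KO, no 2 libraries were duplicates, and other pairs were not compared. The fit was tested on simulated data. The labels number the replicates, and nothing in them ties a number to a culture.

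Named genes were the ATG8 conjugation list, the 10 lowest and 10 highest and the 5 most abundant called genes in each direction, up to 4 members of each of 44 lists and the 5 genes with the smallest p in each direction against the other KO cells. List members with a known role were also given, and a gene with lower rank was then chosen after its values were seen. The members and lists were chosen with earlier results of these data known. Ribosomal protein lists were taken by symbol. Alternatives were the pseudocount, the filter, the scaling, a replicate block, the JG libraries alone, 12 libraries in 1 fit, voom, no trend, an adjusted p of 0.05, each library left out and, added after seeing the data, no chromosome 8 genes. Intervals for counting error were not needed, since values rest on replicates. Promoters are from RefSeq. A few items are not reported here.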

Additional observations from a re-analysis of the deposited data

How the results depend on the processing

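With any 1 library left out, 985 to 1502 genes were called (570 to 841 lower and 415 to 661 higher), fewest without control replicate 2. The other alternatives called 1051 (12 libraries in 1 fit) to 1647 (JG libraries only), and 894 lower against 417 higher after median-of-ratios scaling. Of 253 named genes tested, 169 were called, and 86 of these stayed called under each alternative in which they were tested. The calls of the other 83 depended on at least 1 alternative, and no called gene reversed. The fit of 12 libraries ended 39 of the calls: Acta2, Acvrl1, Adamts5, Ajuba, Aldoc, Ankrd1, Bcl3, Ccl7, Cd68, Cdc6, Cdkn1a, Chac1, Col8a1, Ctsl, Cxcl12, Ddit3, Dusp5, Foxc2, Icam1, Ifit2, Il6, Kdr, Mmp13, Mmrn1, Notch4, Pdgfd, Plxnb2, Psmb8, Rrm2, S100a4, Sdc2, Sema3a, Slc7a11, Stat5b, Tagln, Tap2, Tgfb2, Thy1 and Tnfrsf1b. The JG libraries alone ended 23: Acta2, Adamts5, Ajuba, Birc5, Ccl25, Cdc20, Cdc6, Cdh24, Cdkn1a, Cxcl12, Ddit3, Eif4ebp1, Hmox1, Ifit2, Kif11, Mmrn1, Nr4a1, Rrm2, Sema3a, Sema3e, Timp3, Tra2a and Traf1. A pseudocount of 1 ended those of Ajuba, Atg4a, Cxcl12, Cxcl2, Ddit3, Itga4, Itgb4, Lamb3, Lpar2, Mrpl16, Mx1, Nfkbie, Pdgfd, Pik3cg and Tgfb2, and a pseudocount of 0.1 those of Cxcl12, Ddit3, Foxc2 and Tgfb2. Voom ended those of Bcl3, Ccl7, Cxcl12, Ddit3, Gpc1, Ifit2, Il6, Itgb5, Itgb7, Map1lc3a, Pdgfc and S100a4, median-of-ratios scaling those of Ajuba, Cxcl12, Dusp5, Kdr, Mrpl16, Notch4, Tgfb2 and Tra2a, testing with no filter those of Ctsl, Cxcl12, Ddit3, Dusp5, Egfl7, Foxc2, Ifit2, Il6, Kdr, Map1lc3a, Notch4, Pdgfc, S100a4 and Tgfb2, a fit with no trend those of Ddit3, Dusp5, Il6, Map1lc3a and S100a4, and the replicate block those of Adamts5, Cdkn1a, Cxcl12, Dusp5, Ifit2, Mmp13, S100a4 and Tgfb2. Voom gave larger changes for genes near 0 in 1 group, such as Col4a6 (−3.26, and −5.41 by voom).

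Reversals were in 4 uncalled genes. Atg3 (log2 fold change 0.08) was −0.14 in the JG libraries and −0.091 to 0.18 with 1 library left out. Atg5 (0.00) was −0.056 after median-of-ratios scaling and −0.18 to 0.23 with 1 library left out. Gabarapl1 (−0.11) was −0.20 to 0.037 with 1 library left out. Gap43 (−0.37) was 0.19 in the JG libraries and −0.63 to 0.024 with 1 library left out. For Atg5 KO against the other KO cells, 0 genes were called, against 1 with pseudocount 1 and 0 to 1 with 1 library left out. The 1 gene was Gpx7 in both cases, the second without Fip200 KO replicate 2. The cause was not tested.

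No pairing of libraries by replicate number was seen. Same-numbered control and Atg5 KO libraries had deviations that correlated at 0.08, −0.14 and −0.05, and not each library correlated best with its own number. Deviations from a mean of 3 libraries constrain each other, so this check cannot exclude pairing. The replicate block gave 1322 calls, 817 lower and 505 higher. In the lists, the higher calls of laminins went to 2 and those of immediate early, chemokine and mesenchymal transition genes to 0, while lower calls went to 1 for interferon-stimulated genes, to 2 for lymphatic markers and to 1 for p53 targets and Cdk inhibitors. Smaller shifts were 8 to 6 lower proteases, 3 to 2 lower mesenchymal transition genes, 3 to 2 higher BMP and TGF-beta genes and 2 to 3 higher angiogenic genes. List counts moved by over 1.5 times under other alternatives too. The fit of 12 libraries changed the lower counts of IL-6 and JAK-STAT3 (6 to 3), interferon-stimulated (2 to 1), MHC class I (5 to 3), lymphatic (1 to 0), leukocyte (1 to 0), semaphorin (2 to 0), p53 and Cdk inhibitor (2 to 1) and ATF4 (6 to 3) genes and the higher counts of immediate early (1 to 0), NF-kB (2 to 1), chemokine (1 to 0), angiogenic (2 to 0), lymphatic (2 to 1), fibroblast and mural (3 to 0), mesenchymal transition (1 to 0), Notch (1 to 0), BMP and TGF-beta (3 to 1), YAP (2 to 0) and DNA replication (4 to 2) genes. Median-of-ratios scaling changed the higher counts of immediate early (1 to 0), chemokine (1 to 0), angiogenic (2 to 1), mesenchymal transition (1 to 0), Notch (1 to 0) and YAP (2 to 1) genes and the lower counts of apoptosis (0 to 1) and mitochondrial ribosomal (0 to 1) genes. The JG libraries alone changed the higher counts of laminin (1 to 3), proteoglycan (0 to 1), chemokine (1 to 0), angiogenic (2 to 7), endothelial (6 to 10), lymphatic (2 to 4), Notch (1 to 3), YAP (2 to 1), mitosis (3 to 0), DNA replication (4 to 2), Nrf2 (0 to 1) and splicing (3 to 5) genes and the lower counts of collagen (4 to 7), PI3K (2 to 4), fatty acid synthesis (1 to 3), fibroblast and mural (0 to 2), Notch (0 to 1), semaphorin (2 to 1), YAP (0 to 1), p53 and Cdk inhibitor (2 to 1) and mitochondrial ribosomal (0 to 1) genes. Without chromosome 8 genes, an alternative added after seeing the data, 700 genes were lower and 499 higher. With 3 libraries in each group, smaller changes may be missed, and changes of genes near 0.5 RPKM are understated.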

Other observations

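The control libraries did not stand equally far from the Atg5 KO libraries. Among the 821 genes called lower, control replicate 2 held the highest control value in 466 (56.8%) and control replicate 1 the lowest in 447 (54.4%). Among the 510 genes called higher, control replicate 2 held the lowest control value in 273 (53.5%) and control replicate 1 the highest in 325 (63.7%). Over all 11833 genes tested, control replicate 2 was the highest control in 39.8% and the lowest in 36.4%, and control replicate 1 was the highest in 33.9% and the lowest in 35.5%. Control replicate 1 was thus the control nearest to the Atg5 KO libraries for most called genes in both directions, and it is the 1 control library with the prefix FY.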
